A study of Mus musculus with 3 samples.

Results

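The 10 immediate early genes described here encode transcription factors, early response proteins and phosphatases of MAP kinases, and were measured across nuclei of the mouse submandibular gland. They were taken by symbol and are Fos, Fosb, Jun, Junb, Jund, Egr1, Ier2, Ier3, Dusp1 and Dusp5. All 10 were found among the 32285 genes of the files. RNA of single nuclei was counted in 3 libraries with 1 library per group, to follow cell identities and signalling after irradiation of this salivary gland. The IR+pilocarpine library came from irradiated wild-type (WT) mice given pilocarpine from day 30 to day 90. Pilocarpine activates muscarinic receptors and is used as a drug against dry mouth. The IR+saline library came from irradiated WT mice given saline. The non-IR library came from WT mice that are labelled as having had no treatment, so no saline is recorded for them. The titles put the irradiated glands at 90 days after irradiation and the extraction protocol puts them at 93 days. The labels give neither the number of mice pooled in a library, nor their sex and age, nor the hour at which glands were taken.

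Immediate early genes are transcribed within minutes of a stimulus, without new protein synthesis, and their RNA is short-lived. FOS and JUN proteins pair to form the transcription factor AP-1, EGR1 is a zinc finger transcription factor, and DUSP1 and DUSP5 remove phosphates from MAP kinases and so limit the signal that induces them. In secretory glands these genes are known to respond to nerve and hormone signals, to injury and to the handling of tissue, among other stimuli.

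The promoters of Jun, Dusp1 and Dusp5 are shown, chosen after their values were seen, as members whose levels in acinar-like nuclei differed widely between libraries and rested on at least 64 UMIs (unique molecular identifiers, counted RNA molecules) in each. Ier3 had the largest ratio but only 32 UMIs in non-IR. Each window runs from 250 bases before the start site of transcription to 50 bases from it on, 5′ to 3′ on the strand of the gene, as RefSeq gives it on GRCm38.p6. The windows are chr4:95052173-95052472 on the minus strand for Jun, chr17:26508423-26508722 on the minus strand for Dusp1 and chr19:53528895-53529194 on the plus strand for Dusp5. Capitals mark the motifs searched on both strands, which were the cAMP response element TGACGTCA, its half-site TGACG, the AP-1 site TGANTCA, its variant TGACATCA and the CArG box, bound by the serum response factor SRF.
Jun: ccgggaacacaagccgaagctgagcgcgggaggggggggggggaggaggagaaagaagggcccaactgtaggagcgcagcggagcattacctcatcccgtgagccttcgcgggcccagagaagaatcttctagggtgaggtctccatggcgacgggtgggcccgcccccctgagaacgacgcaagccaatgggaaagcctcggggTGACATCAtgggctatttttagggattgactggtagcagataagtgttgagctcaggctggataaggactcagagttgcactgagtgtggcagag
Dusp1: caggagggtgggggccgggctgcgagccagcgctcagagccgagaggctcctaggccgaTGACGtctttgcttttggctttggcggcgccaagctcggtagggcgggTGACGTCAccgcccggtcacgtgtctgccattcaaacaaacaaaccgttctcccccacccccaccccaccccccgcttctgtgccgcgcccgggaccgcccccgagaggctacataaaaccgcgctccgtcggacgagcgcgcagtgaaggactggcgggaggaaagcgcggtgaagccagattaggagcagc
Dusp5: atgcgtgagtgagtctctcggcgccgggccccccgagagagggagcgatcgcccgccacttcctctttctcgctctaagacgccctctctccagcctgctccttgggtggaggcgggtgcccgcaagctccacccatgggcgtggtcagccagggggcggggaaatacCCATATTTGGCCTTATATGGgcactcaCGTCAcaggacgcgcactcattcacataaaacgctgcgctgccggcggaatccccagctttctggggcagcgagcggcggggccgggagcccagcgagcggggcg
Jun held 1 TGACATCA, which begins at position -45 from the start site. Dusp1 held 1 TGACGTCA, beginning at -143, in which 2 of its 3 half-sites lie. Dusp5 held 2 CArG boxes side by side, beginning at -82 and -72, and 1 half-site on the opposite strand. Of 32851 promoter windows of the same length, 1.79% held TGACGTCA, 20.8% the half-site TGACG, 7.81% TGANTCA, 3.62% TGACATCA and 1.63% a CArG box. Of the other members, Fos had 2 half-sites and Fosb and Junb 1 each, while the windows of Jund and Ier3 held none of the letters searched. Windows were found for 8 of the 10 members, and Egr1 and Ier2 were not among them. A match describes letters and was not tested for binding.

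In the GENCODE annotation of GRCm38, the members lie on 7 chromosomes, and 3 of them, Junb, Jund and Ier2, share chromosome 8. Fos lies at chr12:85473890-85477273, Fosb at chr7:19302696-19310051, Jun at chr4:95049034-95052222, Junb at chr8:84974484-84978718 and Jund at chr8:70698949-70700616. Egr1 lies at chr18:34859823-34864984, Ier2 at chr8:84661331-84662852, Ier3 at chr17:35821684-35822923, Dusp1 at chr17:26505590-26562128 and Dusp5 at chr19:53529109-53542431. Jun, Jund and Ier2 have no intron there, since the exons cover the whole gene. Genes on the opposite strand overlap Jun (Junos), Junb (Prdx2), Jund (Gm11175), Dusp1 (Ergic1 and Gm8225) and Dusp5 (AC137853.2), and the labels do not state whether counting used strand. On its own strand Dusp1 overlaps AC122252.4 and AC122252.1, from which counting by strand would not separate it where exons coincide.

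The libraries held 34322111 UMIs in 10288 barcodes for IR+pilocarpine, 29946943 UMIs in 10161 barcodes for IR+saline and 26417958 UMIs in 12062 barcodes for non-IR. Nuclei were barcodes that had 500 genes or more and no more than 5% of their UMIs from mitochondrial genes. They numbered 8376 in IR+pilocarpine, 8622 in IR+saline and 10635 in non-IR, and their median depths were 2048, 2113 and 1536 UMIs. Between 24 and 26 barcodes were shared by each pair of libraries. The nuclei formed 24 clusters, and clusters with no clear type held 10.5%, 15.3% and 14.8% of the nuclei. The 10 genes together had 3917, 5940 and 2716 UMIs. Levels are CPM, UMIs of a gene per 1000000 UMIs of the same nuclei. Their exact Poisson 95% intervals, and the exact binomial 95% intervals given in parentheses after ratios, cover counting error only. With 1 library per group there was no spread between samples and no test, and a difference between groups cannot be told apart from one between libraries. Fewer cells with an RNA and less RNA per cell cannot be told apart in a summed level.

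In acinar-like nuclei, which carry the secretory cells' markers such as Aqp5 and Pip, the IR+saline library had the highest level of 9 of the 10 genes, and Fosb was the exception. For Egr1 and Ier2, however, the IR+saline interval overlapped both others. The phosphatases Dusp1 and Dusp5, the AP-1 subunit Jun and the stress response gene Ier3 showed the widest separation, and Ier2 the narrowest. The class held 4807 IR+pilocarpine, 3625 IR+saline and 6722 non-IR nuclei, with a median of 2197, 2497 and 1543 UMIs. Of its 4 clusters, most IR+pilocarpine and IR+saline nuclei lay in clusters 0, 1 and 3, and most non-IR nuclei in clusters 0 and 2.

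Fos encodes the AP-1 subunit that pairs with JUN proteins, and its RNA was scarce. It had 0.467 CPM (6 UMIs) in IR+pilocarpine, 2.42 CPM (27 UMIs) in IR+saline and 1.05 CPM (13 UMIs) in non-IR acinar-like nuclei. The IR+saline level was 2.30-fold that of non-IR (1.15 to 4.86), and the IR+pilocarpine level was 0.193 of that of IR+saline (0.0651 to 0.477). These ratios turned on 1 nucleus of the IR+saline library, which held 12 of the 27 Fos UMIs and 52 UMIs of the 10 genes together among 8945 in all. Without the nucleus richest in these genes in each library, the Fos ratio of IR+saline to non-IR was 1.39 (0.606 to 3.25). That of IR+pilocarpine to IR+saline was then 0.347 (0.110 to 0.946). Fosb, a close relative of Fos, had 2 UMIs in IR+pilocarpine, 0 in IR+saline and 2 in non-IR acinar-like nuclei. The 0 among 11154473 UMIs allows up to 0.269 CPM, a limit of 3 counts, and no difference in Fosb was detectable at this depth.

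The 3 JUN family genes were all more abundant in IR+saline than in non-IR acinar-like nuclei, Jun by the largest factor. Jun, the founding JUN subunit of AP-1, had 11.6 CPM in IR+pilocarpine, 27.0 CPM in IR+saline and 7.35 CPM in non-IR nuclei, from 149, 301 and 91 UMIs. Its IR+saline level was 3.67-fold that of non-IR (2.89 to 4.69), its IR+pilocarpine level 0.430 of that of IR+saline (0.351 to 0.525) and 1.58-fold that of non-IR (1.21 to 2.07). Junb had 20.1, 26.4 and 19.0 CPM in IR+pilocarpine, IR+saline and non-IR nuclei, and Jund, the JUN gene known for steady expression in resting cells, had 34.2, 48.9 and 34.4 CPM. Both levels were highest in IR+saline, as that of Jun was, by a smaller factor. Their IR+saline levels were 1.39-fold (1.17 to 1.65) and 1.42-fold (1.25 to 1.62) those of non-IR. Their IR+pilocarpine levels were within counting error of non-IR, at 1.06-fold for Junb (0.883 to 1.27) and 0.995-fold for Jund (0.869 to 1.14). With nuclei thinned to equal depth, a Junb UMI was found in 1.70% of IR+pilocarpine, 1.72% of IR+saline and 1.35% of non-IR nuclei. The irradiated libraries thus did not separate for Junb in these shares, whereas those with Jund were 2.62%, 4.28% and 2.52%. The richest IR+saline nucleus held 14 of the Junb UMIs. Without the richest nucleus of each library, the Junb ratio of IR+pilocarpine to IR+saline was 0.793 (0.667 to 0.943).

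Egr1, the zinc finger factor, was scarce in acinar-like nuclei, with 8 UMIs (0.623 CPM) in IR+pilocarpine, 18 UMIs (1.61 CPM) in IR+saline and 15 UMIs (1.21 CPM) in non-IR. Its IR+pilocarpine level was 0.386 of that of IR+saline (0.145 to 0.932), but without the richest nucleus of each library, which in IR+saline held 6 Egr1 UMIs, the ratio was 0.578 (0.205 to 1.54). Ier2, a nuclear protein induced by growth factors, differed least, with 16.6, 16.7 and 14.0 CPM in IR+pilocarpine, IR+saline and non-IR nuclei. Its ratio of IR+pilocarpine to IR+saline was 0.994 (0.813 to 1.22), so no difference between the irradiated libraries was detectable at this depth. Ier3, which is known to modulate cell survival and ERK signalling, separated the libraries more widely, with 6.23 CPM (80 UMIs) in IR+pilocarpine, 14.8 CPM (165 UMIs) in IR+saline and 2.59 CPM (32 UMIs) in non-IR nuclei. The IR+saline level was 5.72-fold that of non-IR (3.90 to 8.64), the largest ratio of the members, and the IR+pilocarpine level was 0.421 of that of IR+saline (0.318 to 0.553). The IR+pilocarpine level of Ier3 remained 2.41-fold that of non-IR (1.58 to 3.75).

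Dusp1, a phosphatase of p38, JNK and ERK, had 4.98 CPM (64 UMIs) in IR+pilocarpine, 26.4 CPM (295 UMIs) in IR+saline and 7.68 CPM (95 UMIs) in non-IR acinar-like nuclei. Its IR+saline level was 3.45-fold that of non-IR (2.73 to 4.39). Its IR+pilocarpine level was 0.188 of that of IR+saline (0.141 to 0.247), and was also below non-IR, at 0.649 (0.465 to 0.900). Dusp5, a nuclear phosphatase specific for ERK, had 20.9 CPM (268 UMIs) in IR+pilocarpine, 55.0 CPM (613 UMIs) in IR+saline and 15.9 CPM (197 UMIs) in non-IR nuclei. The IR+saline level of Dusp5 was 3.45-fold that of non-IR (2.94 to 4.07), and its IR+pilocarpine level was 0.379 of that of IR+saline (0.328 to 0.439). Unlike Dusp1, Dusp5 in IR+pilocarpine nuclei was above non-IR, at 1.31-fold (1.09 to 1.58).

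**Figure D1:**
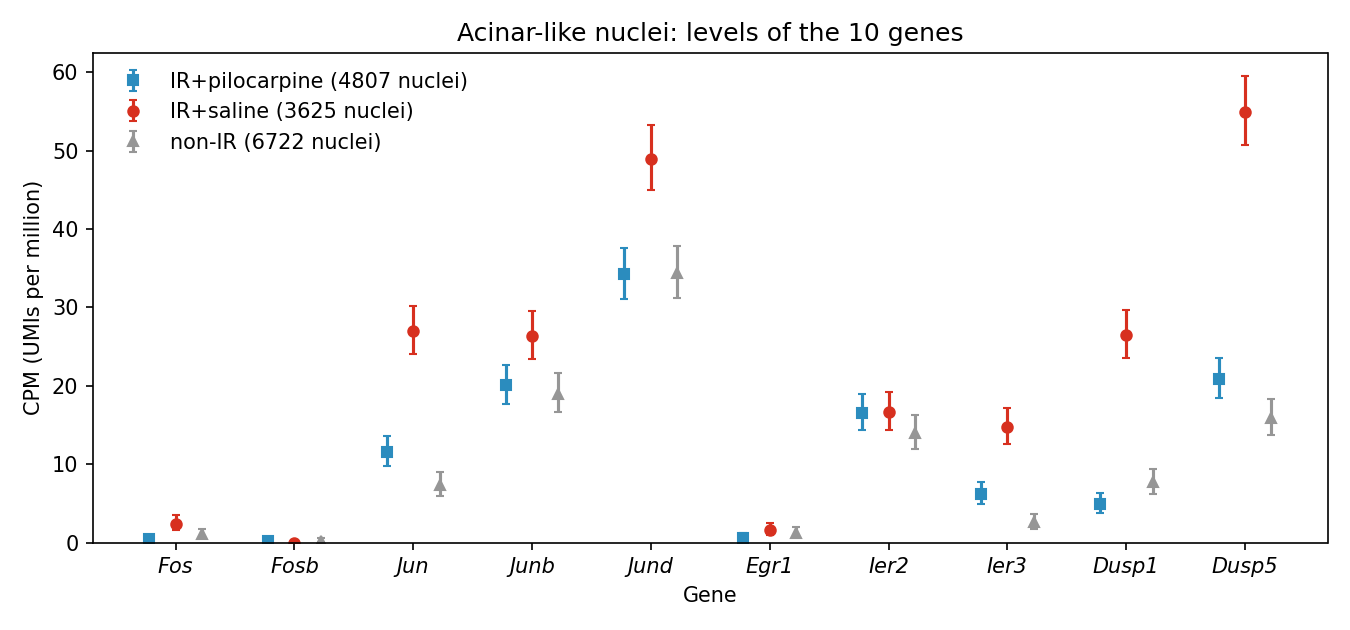
Level (CPM) of each of the 10 genes in acinar-like nuclei of the IR+pilocarpine (squares), IR+saline (circles) and non-IR (triangles) libraries, with exact Poisson 95% intervals for counting error. For Jun, Junb, Jund, Ier3, Dusp1 and Dusp5 the IR+saline interval lies above both others, with Dusp5 at 20.9, 55.0 and 15.9 CPM, while for Ier2 the 3 intervals overlap.

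Counted together, 5 of the 9 members with at least 20 UMIs over the 3 libraries (all but Fosb) were at least 2-fold higher in IR+saline than in non-IR acinar-like nuclei, against 4.21% of all 15047 genes that passed the same minimum. None was at least 2-fold lower (background 3.77%). Their median log2 ratio of CPM + 1 was 0.74, against -0.03 over all genes. In IR+pilocarpine against IR+saline, 6 of 9 were at least 2-fold lower, against 1.73% of all genes, with a median of -1.13 against 0.05, and none was at least 2-fold higher (background 2.34%). In IR+pilocarpine against non-IR, Ier3 was at least 2-fold higher (background 4.06%) and Fos at least 2-fold lower (background 2.66%), and the median was 0.08 against 0.02. The first 2 comparisons share the IR+saline library, so their opposite directions are not independent. Fos passed the minimum only through its 27 IR+saline UMIs, with 6 in IR+pilocarpine and 13 in non-IR. Its place in these 2 counts is thus not independent of its high IR+saline level. Without the richest nucleus of each library the counts were 4 and 5, since Fos left the first, and Egr1 the second. With each nucleus thinned to 800 UMIs, the second count was 3, namely Fos, Dusp1 and Dusp5 by log2 values of -1.30, -2.04 and -1.31.

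**Figure D2:**
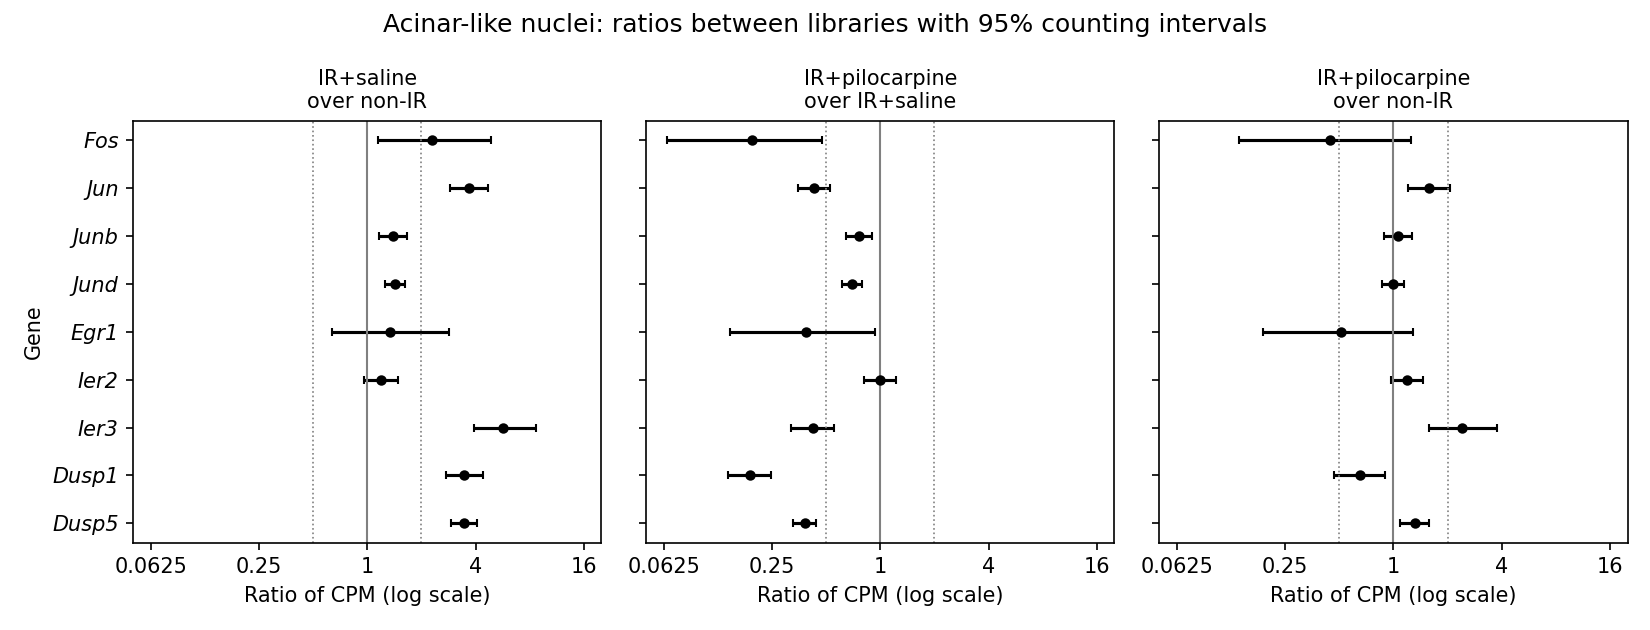
Ratio of CPM (log scale) with its exact 95% counting interval for 9 members in acinar-like nuclei, for IR+saline over non-IR, IR+pilocarpine over IR+saline and IR+pilocarpine over non-IR. Dotted lines mark 2-fold. Jun, Ier3, Dusp1 and Dusp5 lie beyond 2-fold in the first and the second panel, and Ier3 alone lies above 2-fold in the third, at 2.41.

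For Jun, Ier3, Dusp1 and Dusp5, IR+saline had the highest level of the 3 libraries inside each of the 4 acinar-like clusters. Dusp1 was 3.16-fold to 4.23-fold higher in IR+saline than in non-IR in 4 of 4 clusters, and Dusp5 3.89-fold to 5.46-fold. In cluster 0, which holds many nuclei of every library, Dusp5 had 22.0, 58.5 and 15.1 CPM and Dusp1 had 7.32, 35.1 and 9.81 CPM in IR+pilocarpine, IR+saline and non-IR. The ratio of IR+pilocarpine to IR+saline was 0.146 to 0.214 for Dusp1 and 0.187 to 0.419 for Dusp5 over the 4 clusters. Jun was 2.28-fold to 8.31-fold higher in IR+saline than in non-IR, although clusters 1 and 3 had only 2 Jun UMIs each in non-IR. Ier3 was 7.05-fold, 8.93-fold and 4.87-fold higher in clusters 0, 1 and 2, with 1 non-IR UMI in cluster 1, and in cluster 3 it had 76 UMIs in IR+saline and 0 in the 119 non-IR nuclei.

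**Figure D3:**
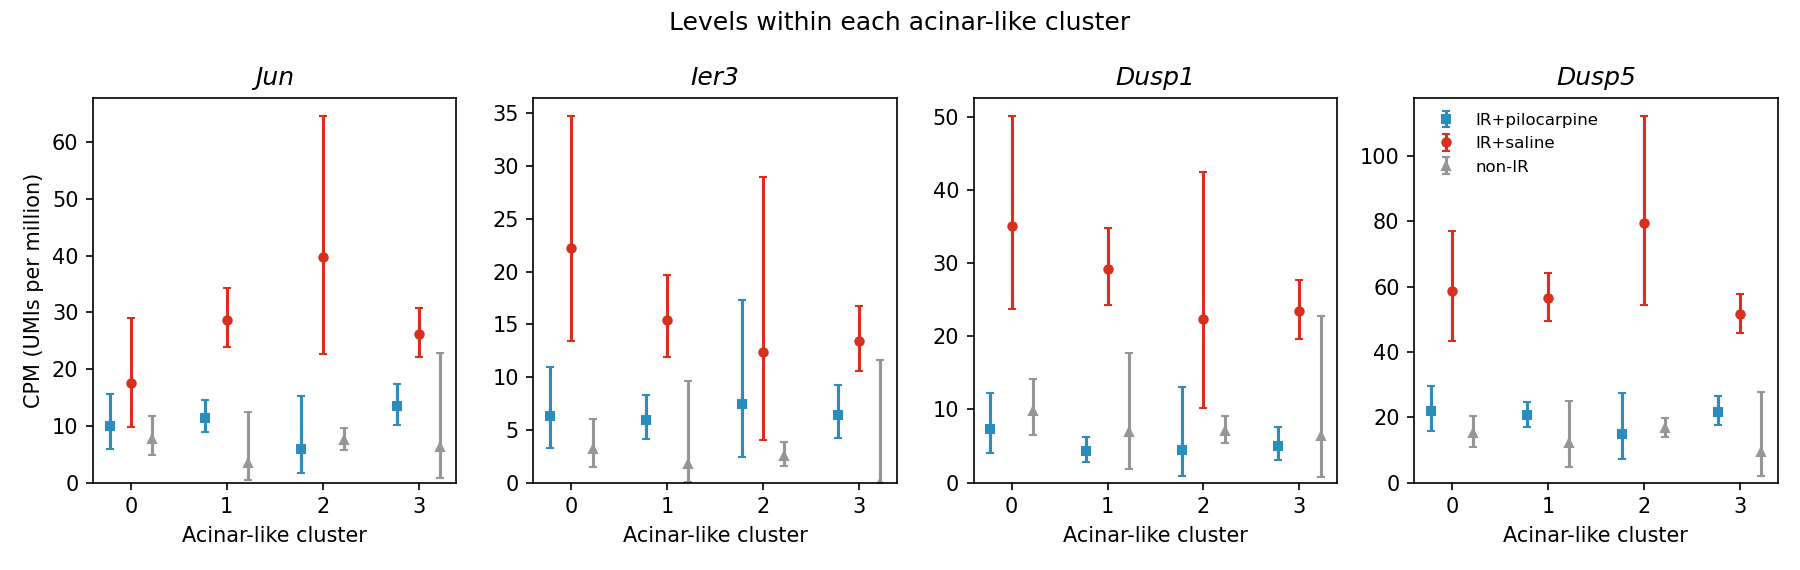
Level (CPM) of Jun, Ier3, Dusp1 and Dusp5 in each of the 4 acinar-like clusters for IR+pilocarpine, IR+saline and non-IR, with exact Poisson 95% intervals. The IR+saline point is the highest in every cluster for all 4 genes, for instance 58.5 CPM of Dusp5 in cluster 0 against 22.0 in IR+pilocarpine and 15.1 in non-IR.

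Per nucleus, at least 1 UMI of the 10 genes was found in 23.6% of IR+pilocarpine, 40.0% of IR+saline and 16.2% of non-IR acinar-like nuclei, and UMIs of at least 2 of the genes in 3.39%, 11.3% and 1.43%. A Dusp5 UMI was found in 5.01%, 13.0% and 2.72% of them. With each nucleus thinned to 800 UMIs, leaving out 105, 75 and 487 shallower nuclei, the shares with Dusp5 were 1.83% (1.47 to 2.25), 4.51% (3.85 to 5.24) and 1.28% (1.02 to 1.59), in the same order as before thinning. Those with Dusp1 were 0.595%, 2.56% and 0.754%, those with Jun 0.957%, 2.0% and 0.674%, and those with Ier3 0.510%, 1.24% and 0.209%. Thinned shares with Jund were 2.62%, 4.28% and 2.52%, and those with Junb 1.70%, 1.72% and 1.35%. IR+saline was not highest for Ier2, at 1.68%, 1.55% and 1.20%, nor for the scarce Egr1, at 0.128%, 0.0563% and 0.160%. In duct-like nuclei, a class with little Dusp5, a Dusp5 UMI was found in 0.287%, 0.423% and 0.455%, at median depths of 1264, 1571 and 1214 UMIs. Each member was thus seen in a minority of acinar-like nuclei, and 39 IR+saline nuclei held 5 or more UMIs of the 10 genes, against 9 in IR+pilocarpine and 1 in non-IR. These counts, and the shares with any or with at least 2 of the genes, were not thinned. Median depth was highest in IR+saline, at 2197, 2497 and 1543 UMIs in IR+pilocarpine, IR+saline and non-IR acinar-like nuclei.

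Barcodes with few genes showed the same order for several members. In the 1911, 1536 and 1425 barcodes with under 500 genes of IR+pilocarpine, IR+saline and non-IR, Dusp1 had 13.5, 40.0 and 14.2 CPM and Jun 23.9, 52.9 and 8.25 CPM. Both genes were higher in these barcodes than in acinar-like nuclei of the same library, although the intervals overlapped for both in non-IR (3.32 to 17.0 CPM for Jun and 7.31 to 24.7 CPM for Dusp1 in these barcodes) and for Dusp1 in IR+saline (26.6 to 57.9 CPM against 23.5 to 29.6 CPM). Ier3 had 6.24, 15.7 and 5.90 CPM there, close to its levels in the acinar-like nuclei of the irradiated libraries. Dusp5 had 8.32, 25.7 and 5.90 CPM, below its acinar-like levels in each library. When the level of the class lowest in each gene was taken off as an estimate of free RNA, 5 members were at least 2-fold higher in IR+saline than in non-IR, namely Fos, Jun, Ier3, Dusp1 and Dusp5. For Fos this step could not change the ratio, because its lowest class had 0 CPM in each library. Ier3 had only 1.13 CPM left in IR+saline and 0.493 CPM in non-IR. In IR+pilocarpine this step put Ier3 and Dusp1 at 0 in acinar-like nuclei, since these were themselves the lowest class. Most of the Ier3 level of IR+saline was also taken off, because fibroblast-like nuclei had 13.7 CPM there against 14.8 CPM in acinar-like nuclei. The log2 ratio of Ier3 (CPM + 1) in IR+pilocarpine over non-IR turned to -0.58. That of Jun turned to -1.15, with 2.29 CPM left in IR+pilocarpine and 6.31 CPM in non-IR. That of Jund became -0.84.

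Among marker lists of other cell types, pericyte or smooth muscle and cycling markers were the ones with the highest sum in acinar-like nuclei of IR+saline. The 8 fibroblast markers summed to 26.2, 15.7 and 30.7 CPM in IR+pilocarpine, IR+saline and non-IR, with none at 0. The 8 endothelial markers summed to 10.7, 7.62 and 13.6 CPM, the 9 macrophage markers to 80.0, 70.2 and 76.2 CPM and the 12 granular or striated duct markers to 1018, 1054 and 1107 CPM, again with none at 0. Pericyte or smooth muscle markers, 5 of 6 of them detected and Higd1b at 0, summed to 47.6, 53.4 and 31.9 CPM, and the 6 cycling markers to 7.86, 7.89 and 3.31 CPM, with none at 0. The 7 Schwann markers were higher in both irradiated libraries than in non-IR, at 300.5, 276.9 and 223.6 CPM, with S100b at 0 in IR+saline. Their part in the results was not tested. Of the overlapping genes on the other strand, Ergic1 (Dusp1) was lower in IR+saline than in non-IR, at 0.848, whereas Junos (Jun) was 1.69-fold higher and 0.727 in IR+pilocarpine over IR+saline. Reads of Jun and Junos may not be separated if counting ignored strand.

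Granular or striated duct cells carry saliva and secrete growth factors such as EGF. In nuclei of the class named after them Jun was the member with most UMIs, with 27.7 CPM in IR+pilocarpine, 60.6 CPM in IR+saline and 25.3 CPM in non-IR, from 14, 191 and 23 UMIs. The IR+saline level was 2.39-fold that of non-IR (1.55 to 3.86) and the IR+pilocarpine level 0.457 of that of IR+saline (0.245 to 0.786). Ier3 had 11.9, 23.5 and 4.41 CPM and Dusp1 9.89, 14.3 and 4.41 CPM, each with 4 UMIs in non-IR, so their IR+saline levels of 5.33-fold (2.0 to 20.1) and 3.24-fold (1.18 to 12.4) that of non-IR are imprecise. Of 6 members with at least 20 UMIs, these 3 were at least 2-fold higher in IR+saline than in non-IR (background 4.37%) and none was at least 2-fold lower (background 3.77%). Ier3 and Dusp1 passed that minimum only through IR+saline, with 74 and 45 UMIs there against 6 and 5 in IR+pilocarpine. Their place in the count is thus not independent of their high IR+saline levels. Against IR+saline, Jun alone was at least 2-fold lower in IR+pilocarpine (background 6.12%), and none was at least 2-fold higher (background 4.41%). That count of 1 was 0 with each library clustered alone, 2 with the free RNA estimate taken off and 4 with a minimum of 1000 genes per nucleus. In IR+pilocarpine over non-IR, Ier3 and Dusp1 were at least 2-fold higher (background 6.26%) and Ier2 at least 2-fold lower (background 7.84%), each from 6 or fewer UMIs in IR+pilocarpine. Dusp5, prominent in acinar-like nuclei, had only 1, 7 and 3 UMIs here, and Fos 0, 4 and 0. Of the IR+saline duct-like nuclei 555 of 1655 lay in cluster 11, against 25 of 349 in IR+pilocarpine and 52 of 659 in non-IR. Within cluster 4 alone, the other duct-like cluster, Jun had 27.2, 62.8 and 23.0 CPM. The name of cluster 4 is weakly based, as its median marker level of 0.508 barely passed the limit of 0.5. Of its 10 leading genes 0 were duct markers, against 3 in cluster 11. Acinar markers, all but Smr3a detected, summed to 68557, 21549 and 39908 CPM in duct-like nuclei of IR+pilocarpine, IR+saline and non-IR, and their part in these values was not tested.

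Fibroblast-like nuclei were marked by Egr1 rather than by Dusp5. Egr1 had 44.6 CPM (67 UMIs) in IR+pilocarpine, 72.6 CPM (85 UMIs) in IR+saline and 29.3 CPM (28 UMIs) in non-IR, and its intervals lay wholly above those of acinar-like nuclei in each library. The IR+saline level was 2.48-fold that of non-IR (1.60 to 3.94), and the IR+pilocarpine level 0.614 of that of IR+saline (0.439 to 0.856). Dusp1 had 12.6, 32.4 and 12.6 CPM, its IR+saline level being 2.58-fold that of non-IR (1.32 to 5.43) and its IR+pilocarpine level 0.389 of that of IR+saline (0.212 to 0.692). Jun had 9.31, 11.1 and 1.05 CPM, with 1 UMI in non-IR, so that its ratio of 10.6 has a counting interval of 1.59 to 451. Both irradiated libraries were above non-IR for Jun in this class, a comparison that rests on that 1 UMI. The IR+pilocarpine interval of 5.09 to 15.6 CPM overlapped that of non-IR (0.0265 to 5.83 CPM). The irradiated libraries did not separate from each other for Jun, at 0.839 (0.366 to 1.94). Of the classes used for the free RNA estimate, this one was lowest in Jun in each library, and the estimate equals its own level. Junb, Jund and Ier2 were within counting error of 1-fold in IR+saline over non-IR. In all, 5 of 8 members were at least 2-fold higher in IR+saline than in non-IR (background 6.89%), Ier3 and Dusp5 being the others, and 3 of 8 after the free RNA estimate was taken off, while none was at least 2-fold lower (background 7.17%). In IR+pilocarpine against IR+saline, Dusp1 and Ier3 were at least 2-fold lower (background 2.57%) and none was at least 2-fold higher (background 5.54%). In IR+pilocarpine over non-IR, Jun and Ier3 were at least 2-fold higher (background 5.77%), with 1 and 2 UMIs in non-IR, and none was at least 2-fold lower (background 2.45%). Acinar markers summed to 51856, 31018 and 45375 CPM in these nuclei, and their part in these values was not tested.

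Myoepithelial-like nuclei, from the contractile cells that wrap the acini, also carried Egr1, at 17.6 CPM (36 UMIs) in IR+pilocarpine, 54.2 CPM (46 UMIs) in IR+saline and 19.1 CPM (14 UMIs) in non-IR. Its IR+saline level was 2.84-fold that of non-IR (1.53 to 5.59) and its IR+pilocarpine level 0.324 of that of IR+saline (0.204 to 0.512), which is within counting error of non-IR at 0.919 (0.484 to 1.85). Dusp1 showed no such order, with 8.29, 5.89 and 5.46 CPM and overlapping intervals, and neither did Jun with 11.7, 11.8 and 9.55 CPM. Dusp5 had 7.80, 21.2 and 16.4 CPM, and its IR+pilocarpine level was 0.368 of that of IR+saline (0.176 to 0.765). In all, 3 of 8 members, Egr1, Ier2 and Ier3, were at least 2-fold higher in IR+saline than in non-IR (background 7.64%), with 2 UMIs of Ier2 and 3 of Ier3 in non-IR, and none was at least 2-fold lower (background 5.35%). Egr1 and Dusp5 were at least 2-fold lower in IR+pilocarpine than in IR+saline (background 2.41%), a count that was 4 with each library clustered alone, and none was at least 2-fold higher (background 5.72%). In IR+pilocarpine over non-IR, Ier2 and Ier3 were at least 2-fold higher (background 6.94%) and Dusp5 at least 2-fold lower (background 1.81%). The interval of each of these 3 ratios included 1, and the count of 2 was 1 when thinned or clustered alone and 4 with the free RNA estimate taken off.

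In classes with fewer nuclei the levels alone are given. Endothelial-like nuclei (273, 205 and 243) also had their highest Jun, Egr1, Ier3, Dusp1 and Fos levels in IR+saline. Egr1 had 7.93, 53.0 and 1.55 CPM in IR+pilocarpine, IR+saline and non-IR, Ier3 11.9, 53.0 and 10.9 CPM and Fos 0, 13.6 and 3.10 CPM, the 53.0 CPM of both Egr1 and Ier3 resting on 35 UMIs each. For Egr1 and Ier3 the IR+saline interval of 36.9 to 73.8 CPM lay above both others. Ionocyte-like nuclei (113, 326 and 212), which carry proton pump genes, differed for Egr1 and Fos. Egr1 had 0 UMIs among 291249 in IR+pilocarpine, which allows up to 10.3 CPM, against 68.2 CPM (44 UMIs) in IR+saline and 63.5 CPM (23 UMIs) in non-IR. Fos had 0 UMIs in IR+pilocarpine, 21.7 CPM in IR+saline and 22.1 CPM in non-IR ionocyte-like nuclei. For both genes IR+saline and non-IR overlapped there, and for Egr1 their intervals lay above the limit of IR+pilocarpine. The class leaves out unnamed cluster 16 (32, 128 and 76 nuclei), although Ascl3, Rcan2 and Kcnj3 were among its leading genes as in ionocyte-like nuclei. Levels in that cluster are not given here, so the 0 UMIs hold for the named class only.

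Macrophage-like nuclei (164, 244 and 104) had 3.88, 17.3 and 10.6 CPM of Dusp1 and 7.76, 24.0 and 21.1 CPM of Dusp5. Their Jun was 29.8, 32.0 and 15.9 CPM, with overlapping intervals, and their Egr1 had 0, 12 and 4 UMIs. In pericyte or smooth muscle-like nuclei (28, 46 and 25) Dusp1 had 1, 12 and 1 UMIs and Jun 0, 10 and 1. In T or NK-like nuclei (92, 101 and 54) Dusp5 had 7, 18 and 3 UMIs, in Schwann-like nuclei (71, 56 and 63) Ier3 had 7, 3 and 0, and in cycling-like nuclei (44, 72 and 27) Dusp1 had 0, 8 and 4. Fosb was scarce throughout, with 8, 6 and 5 UMIs over all nuclei of IR+pilocarpine, IR+saline and non-IR. Lymphatic endothelial-like nuclei were too few, at 8, 17 and 9, for a difference to be detectable.

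**Figure D4:**
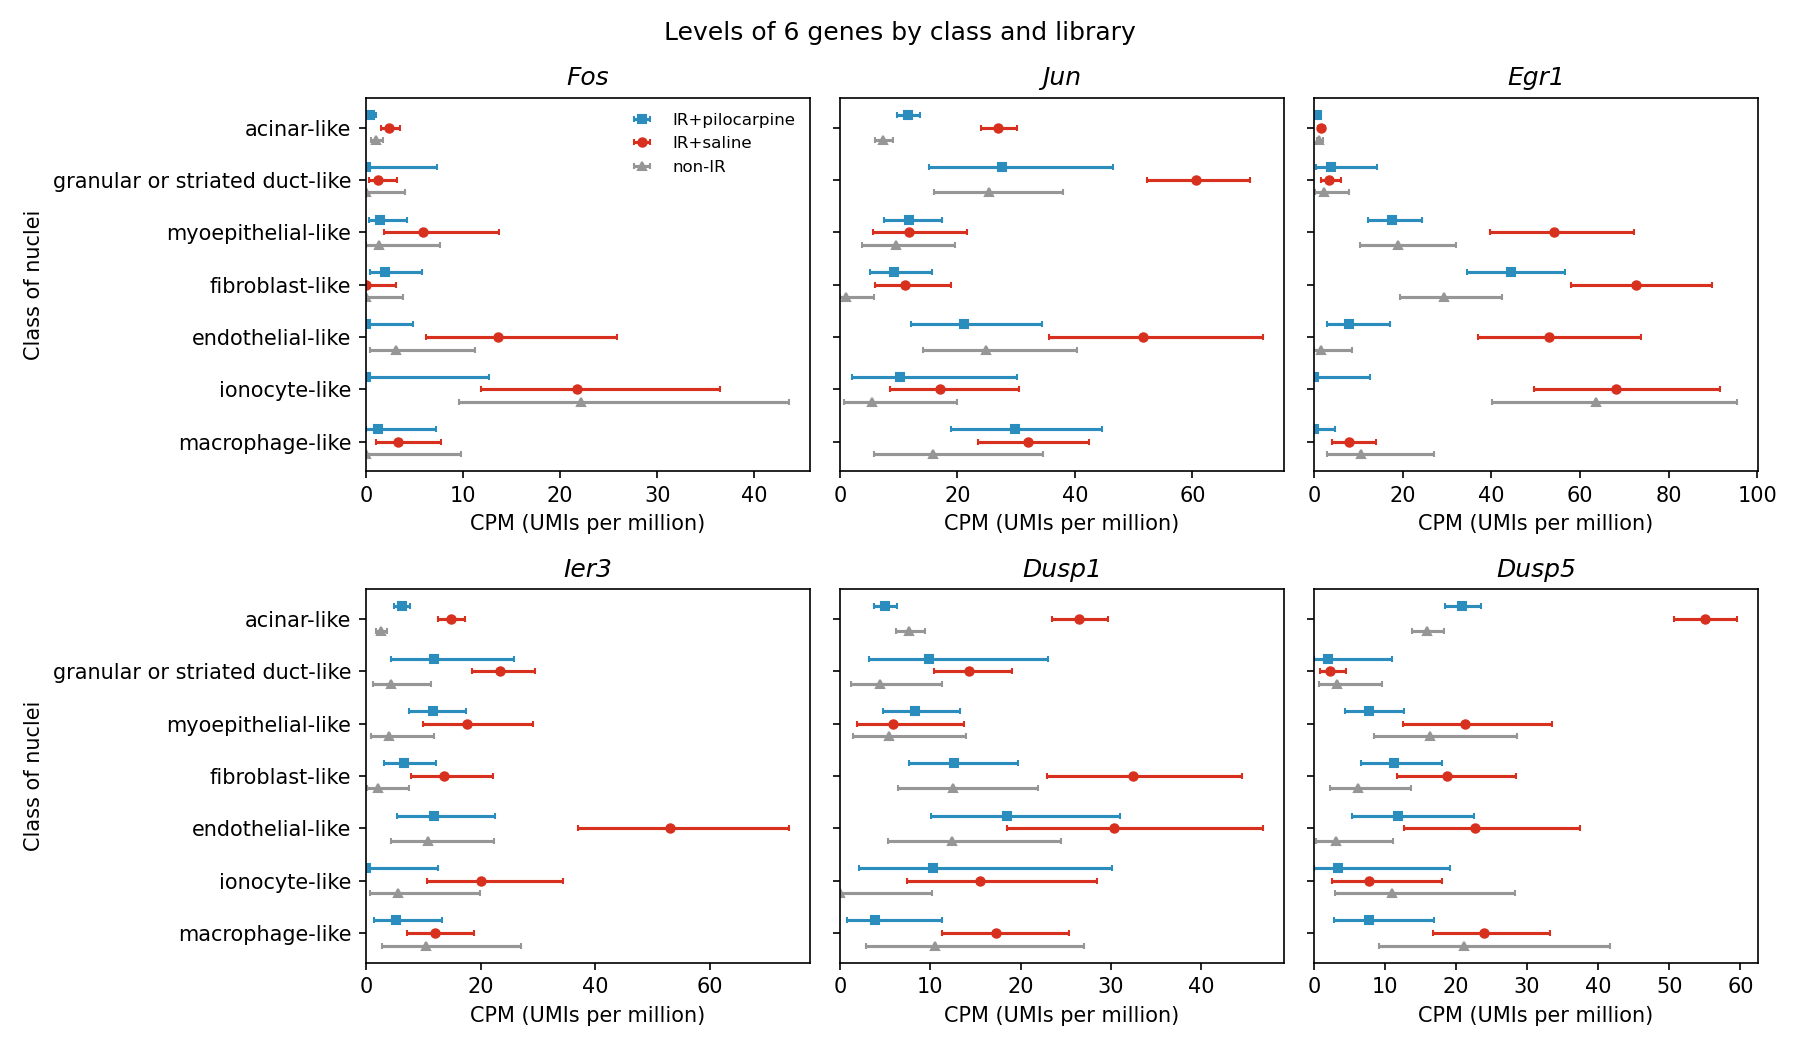
Level (CPM) of Fos, Jun, Egr1, Ier3, Dusp1 and Dusp5 in 7 classes of nuclei for IR+pilocarpine, IR+saline and non-IR, with exact Poisson 95% intervals. Dusp5 is highest in acinar-like nuclei of IR+saline (55.0 CPM), Egr1 in fibroblast-like nuclei of IR+saline (72.6 CPM), and ionocyte-like nuclei have Egr1 in IR+saline and non-IR but 0 UMIs in IR+pilocarpine.

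Ordered over the 7 plotted classes within the IR+saline library, Jun ranged from 60.6 CPM in duct-like nuclei to 51.5 CPM in endothelial-like, 32.0 CPM in macrophage-like and 27.0 CPM in acinar-like nuclei. It was lower in ionocyte-like (17.1 CPM), myoepithelial-like (11.8 CPM) and fibroblast-like nuclei (11.1 CPM). Neighbours in this order overlapped in their counting intervals, and so did the small pericyte or smooth muscle-like class at 62.6 CPM (30.0 to 115) with duct-like nuclei. Egr1 followed a different order, with 72.6 CPM in fibroblast-like, 68.2 CPM in ionocyte-like, 54.2 CPM in myoepithelial-like and 53.0 CPM in endothelial-like nuclei, all of them overlapping. It then had 7.99 CPM in macrophage-like, 3.49 CPM in duct-like and 1.61 CPM in acinar-like nuclei, and the step from endothelial-like to macrophage-like nuclei exceeded the intervals among these 7 classes. Pericyte or smooth muscle-like nuclei had 25.1 CPM (6.83 to 64.1), overlapping both sides of that step, and the 17 lymphatic endothelial-like nuclei had 182 CPM (59.1 to 425) from 5 UMIs. Dusp5 at 55.0 CPM in acinar-like nuclei was above every other of the 7 plotted classes by its interval of 50.7 to 59.5 CPM, the next being macrophage-like at 24.0 CPM (16.8 to 33.2). Its interval overlapped those of the smaller T or NK-like class at 43.3 CPM (25.6 to 68.4) and the pericyte or smooth muscle-like class at 37.6 CPM (13.8 to 81.8). Dusp1 had overlapping intervals in fibroblast-like (32.4 CPM), endothelial-like (30.3 CPM) and acinar-like nuclei (26.4 CPM). The small pericyte or smooth muscle-like class had more, 75.2 CPM (38.8 to 131) from 12 UMIs, with an interval above that of acinar-like nuclei.

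IR+saline was also highest for Jun, Egr1 and Ier3 in a cluster without a name. In cluster 8, led by Wnt4, Kcnq1 and Scnn1b and with the deepest nuclei (median 10096 UMIs), Jun had 14.3, 37.5 and 16.3 CPM in IR+pilocarpine, IR+saline and non-IR, Egr1 5.99, 18.1 and 9.65 CPM and Ier3 6.87, 19.6 and 5.52 CPM. For each of these genes the IR+saline interval lay above both others. The best marker match of cluster 8 was acinar, at a median level of 0.534, but more of its leading genes were of another type. Doublets were not removed, and levels in the other unnamed clusters are not given here. Over the 17 clusters with enough nuclei, Ier3 was above non-IR in IR+saline in 17, Jun in 16, Dusp1 in 15 and Ier2 in 9. These clusters share the same pair of libraries and are not replicates, and some held hardly any non-IR UMIs of a gene. The share over all genes within clusters is not given here. With all nuclei summed, 59.97% of tested genes were higher in IR+saline than in non-IR. Over all nuclei, 6 of 9 members were at least 2-fold higher in IR+saline than in non-IR (background 8.66%) and none at least 2-fold lower (background 1.4%). In IR+pilocarpine over IR+saline, 6 of 9 were at least 2-fold lower (background 3.8%) and none at least 2-fold higher (background 1.44%). None was past 2-fold in either direction in IR+pilocarpine over non-IR (background 7.36% higher and 1.8% lower).

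Genes related to the members were described by lists, whose counts stand against 4.21% of all tested genes at least 2-fold higher and 3.77% at least 2-fold lower in IR+saline than in non-IR acinar-like nuclei, and a median log2 ratio of -0.03. Of 11 other AP-1 and ATF partners, 8 passed the minimum in acinar-like nuclei, and 1 of them, the stress-induced repressor Atf3, was at least 2-fold higher in IR+saline than in non-IR, with 1.95, 2.33 and 0.889 CPM in IR+pilocarpine, IR+saline and non-IR. Their median log2 ratio was 0.02. Of 37 other immediate early genes 31 passed, of which 7 were at least 2-fold higher and 1 lower, with a median of 0.36. Among them Klf10, a zinc finger gene induced by TGF-beta, had 47.0, 42.1 and 16.2 CPM, so that both irradiated libraries were alike and above non-IR, 2.89-fold (2.46 to 3.41) and 2.59-fold (2.19 to 3.08). The nuclear receptor gene Nr4a1 had 80.8, 143 and 68.0 CPM, an order like that of Dusp5, with IR+saline 2.10-fold above non-IR (1.93 to 2.29) and IR+pilocarpine 0.564 of IR+saline (0.521 to 0.610).

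Of 14 other MAP kinase phosphatases and Sprouty family genes, 11 passed and all 11 had a higher level in IR+saline than in non-IR, against 45.97% of all genes tested, 2 of them at least 2-fold, with a median of 0.28. Dusp4, a nuclear phosphatase of ERK and JNK, had 8.33, 16.0 and 2.10 CPM, and its IR+saline level of 7.60-fold that of non-IR (5.02 to 11.9) exceeded that of any member. Its IR+pilocarpine level was 0.522 of that of IR+saline (0.407 to 0.667) and 3.96-fold that of non-IR (2.56 to 6.34). Spred1, an inhibitor of the RAS to ERK pathway, had 107, 112 and 56.0 CPM and did not separate the irradiated libraries, at 0.953 (0.882 to 1.03). The 34 MAP kinase, SRF, ternary complex factor and CREB genes, which lie upstream of the members, all passed, and none was past 2-fold in either direction, with a median of -0.10. Map2k6, a kinase that activates p38, was the lowest of them at 0.526 of non-IR in IR+saline (0.428 to 0.643), with 12.5, 12.9 and 24.6 CPM.

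Heat shock genes, used here as a sign of stress in handling, had none of the 11 that passed, of 12 listed, past 2-fold in IR+saline over non-IR and a median of 0.26. Of these 11, 9 had a higher level in IR+saline than in non-IR, against 45.97% of all genes tested. Hspa8, a chaperone gene, had 36.0, 41.0 and 22.1 CPM. Its IR+saline level was 1.85-fold that of non-IR (1.59 to 2.16). Of 11 genes induced by glucocorticoids, 3 were at least 2-fold higher, with a median of 0.63. Sgk1, a kinase of ion transport, had 7.08, 11.2 and 4.93 CPM and the clock gene Per1 had 79.0, 108 and 52.0 CPM, both highest in IR+saline. In IR+pilocarpine over IR+saline the medians of the same 6 lists, from AP-1 partners to glucocorticoid genes, were -0.03, -0.06, -0.09, 0.02, -0.07 and -0.27, all nearer to 0 than the -1.13 of the members. The part of handling, hour and hormone in the results was not tested.

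Across 28 units, each a class in 1 library with at least 50 nuclei, the members did not follow one pattern. Pearson's r between the log2(CPM + 1) of member pairs was 0.65 at most, for Dusp5 and Jund, and -0.30 at least, for Egr1 and Jun. The genes most like the mean profile of the 10 members were Hnrnpf (r = 0.69), Il4i1 (0.64), Scyl3 (0.64), Eda2r (0.62) and Per1 (0.62). These units share libraries, differ in depth and hold few UMIs of most members, so the values only describe them.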

How the data were processed

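The deposited values are counts, UMIs per gene and barcode. The submitters' processing notes name Cell Ranger 7.0.1 and GRCm38, and the deposited counts are not normalized. The kit reads the 3′ end of transcripts, per the labels' protocols. Whether intron reads were counted, and by which annotation and strand, is not given in the sources used here. The 3 libraries hold 1 group each, so n is 1 and no test was run.

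Of 32511 barcodes, 27633 had 500 genes or more and a mitochondrial share of UMIs of 5% or less, and were kept. Scrublet, with an expected rate of 6%, called 0 doublets and so did not work, and doublets stayed in. All nuclei were clustered together with scanpy 1.11.5 on 3000 variable genes without the members and listed genes, with 30 principal components, 15 neighbours and Leiden resolution 1 (leidenalg 0.10.2). A cluster was named when at least 3 markers of a type were detected at a median CPM no lower than 0.5 of that in the highest cluster, with no more leading genes of another type. That level was set after seeing the data, and the study's own names may differ. Counts were then summed per class and library. Ratios were computed for the 4 classes of 300 or more nuclei per library and genes with at least 20 UMIs over the 3 libraries, with scipy 1.17.1 for the exact intervals. The interval code was checked on simulated data.

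The members and the gene lists were chosen with earlier results of these data known. Besides the members, the text names the 2 genes of each list with the largest absolute log2 ratio of CPM + 1 in acinar-like nuclei (IR+saline over non-IR, at least 50 UMIs), and the 5 genes most like the members' mean profile. Of these, Jdp2 (22.4, 30.8 and 18.8 CPM in IR+pilocarpine, IR+saline and non-IR), Map3k1 (529, 481 and 678 CPM) and Hspa1b (4.20, 5.65 and 2.83 CPM) are given here only. Gene positions are from GENCODE vM21, matched by gene ID, and promoters from RefSeq on GRCm38.p6, matched by symbol.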

Additional observations from a re-analysis of the deposited data

How the results depend on the processing

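No paired analysis was possible because there is a single library for every condition. In acinar-like nuclei 16 alternatives were tried for each count. The number of members at least 2-fold higher in IR+saline than in non-IR ranged from 4 to 6, and the median log2 ratio from 0.41 to 1.66. For IR+pilocarpine over IR+saline the count ranged from 3 (thinned to 800 UMIs) to 6, and the median of -1.13 became -0.64 with nuclei of 1000 to 4000 UMIs, -0.74 with equal weight for each cluster, -0.41 with a pseudocount of 10 CPM and -0.68 without the richest nucleus of each library. For IR+pilocarpine over non-IR the count of 1 became 0 with free RNA subtracted, 0 over all nuclei and 2 at a fold of 1.5. Its median became 0.39 when thinned and turned to -0.48 with free RNA subtracted. By that same step the log2 ratio of Ier3 turned to -0.58 and that of Jun to -1.15. The cause of these shifts was not tested.

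Alternatives in the other classes, and the one without the richest nucleus, were added after seeing the data. In duct-like nuclei, members lower in IR+pilocarpine than in IR+saline numbered 4 with 1000 genes per nucleus, 2 with free RNA subtracted and 0 with libraries clustered alone. Those higher in IR+pilocarpine than in non-IR numbered 1 with 1000 genes and 1 with libraries clustered alone. In fibroblast-like nuclei with free RNA subtracted, 3 were higher in IR+saline than in non-IR. In myoepithelial-like nuclei, members higher in IR+pilocarpine than in non-IR numbered 1 when thinned, 4 with free RNA subtracted and 1 with libraries clustered alone, and 4 were then lower than in IR+saline. Member ratios past 2-fold in acinar-like nuclei, by log2 of CPM + 1, had 149 values under alternatives. Of these, 120 stayed the same, 28 moved and 1 reversed, so that 148 kept their direction. Ratios not past 2-fold were outside this count and some changed sign. The log2 ratio of Egr1 in IR+saline over non-IR ranged from -0.64 to 0.92. That of Jun in IR+pilocarpine over non-IR ranged from -1.15 to 0.73. Depth limits Fos, Fosb and Egr1 in acinar-like nuclei and most members in classes under 300 nuclei per library.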
